A study of Mus musculus with 4 samples.

Results

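Genes of the sweat gland and its duct were followed in the epidermis of hairless mouse hindpaw skin: Aqp5, Slc12a2, Car2, Foxa1, Foxc1, Foxi1, En1, Eda and Edar. The 9 genes were chosen by name, and each was read from the probe set that the platform annotation gives to that gene alone. All 9 of 9 were measured, each by 1 probe set, out of 19938 named genes. The mice overexpressed either noggin or BMP4 under the K14 promoter, which drives a transgene in basal keratinocytes. The labels give no strain, age or sex for either line. Epidermis was cut by laser from stained frozen sections, with 8 to 10 strips per animal and 6 animals per line. Each array received RNA pooled from 3 animals, which gave 2 noggin arrays and 2 BMP4 arrays. Non-transgenic skin was not analysed here. Every difference is therefore noggin minus BMP4, on the log2 scale of array intensity.

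BMP4 is a secreted signal that acts through receptor kinases and SMAD proteins, and noggin binds BMPs outside the cell and keeps them from their receptors. Eccrine sweat glands grow down from the epidermis of the paw pads as buds, and each ends in a coiled secretory part joined to the surface by a duct. Their buds depend on En1, a homeobox factor of the ventral limb, and on the ligand Eda and its receptor Edar, which signal through NF-kB. BMP signalling is known to favour sweat gland over hair follicle fate in the footpad. In the mature coil, forkhead factors control secretory genes, while Slc12a2 brings in chloride, the water channel Aqp5 lets water through and the carbonic anhydrase Car2 handles bicarbonate. The body of the gland lies in the dermis, while the strips were cut from epidermis. Markers of fibroblasts and skeletal muscle were also read in the strips, as given at the end. Whether any of the gland body was captured was not tested.

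None of the 9 genes differed between noggin and BMP4 epidermis past the threshold of an adjusted p of 0.05. Car2 showed the widest difference, 0.61 on the log2 scale toward noggin, and Aqp5 and Foxa1 were the only others whose groups did not overlap. The remaining 6 genes overlapped between the lines and differed by 0.081 or less in either direction. Limma called 0 of 9 members, where the same rule called 0.0% of all 35556 probe sets. Adjusted p of the members lay between 0.874 and 0.9999. At an unadjusted p below 0.05 limma gave 1 of the 9, Car2, against 4.28% of all named genes. The noggin pair lay wholly above the BMP4 pair in 2 members (15.7% of genes) and wholly below it in 1 member (17.9% of genes), so 3 of 9 did not overlap where 33.6% of genes did not. The mean was higher in noggin for 6 members (47.8% of genes) and lower for 3 (52.2%). The median difference was 0.049 over the members and -0.0064 over all genes. An exact permutation test of 2 arrays against 2 cannot give a two-sided p below 0.333 for a single gene.

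The arrays were similar as a whole, with medians between 6.04 and 6.06 and correlations of 0.983 to 0.989 over all probe sets. The highest correlation was between lines, for noggin replicate 1 with BMP4 replicate 2. The noggin pair correlated at 0.987 and the BMP4 pair at 0.986. Keratinocyte markers were bright, with Krt14 at 12.25 to 12.42 and Krt9, a keratin of palm and sole skin, at 13.28 to 13.44. Markers of other cells were present too. The BMP4 replicate 1 array held the lowest summed level of several of these lists, which are given at the end. Nog had values of 5.92 and 5.99 in noggin and 6.13 and 6.04 in BMP4 epidermis, and Bmp4 had 7.77 and 7.86 in noggin and 8.22 and 8.03 in BMP4. The transcript part held by each transgene is unknown here, so these values do not check the labels.

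Detection calls were not used here, and the level of genes with no expected role in epidermis was used as a guide. The 1210 probe sets of olfactory and vomeronasal receptors had a median of 4.11 and a 95th percentile of 5.62. Probes differ in their own brightness, so this marks a zone where expression is uncertain and does not rank the genes. A mean at or above that percentile was found for 5 of 9 members, Slc12a2, Aqp5, Car2, En1 and Foxi1. Slc12a2 was above all of the receptor probe sets, Aqp5 was below 1 and Car2 was below 2. En1 was below 16 and Foxi1 below 30 of the receptor probe sets. The other 4, Eda, Foxa1, Edar and Foxc1, lay under the percentile, with 66, 70, 93 and 141 receptor probe sets at or above them. Whether these 4 genes were detected is uncertain, and so are their differences below.

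**Figure D1:**
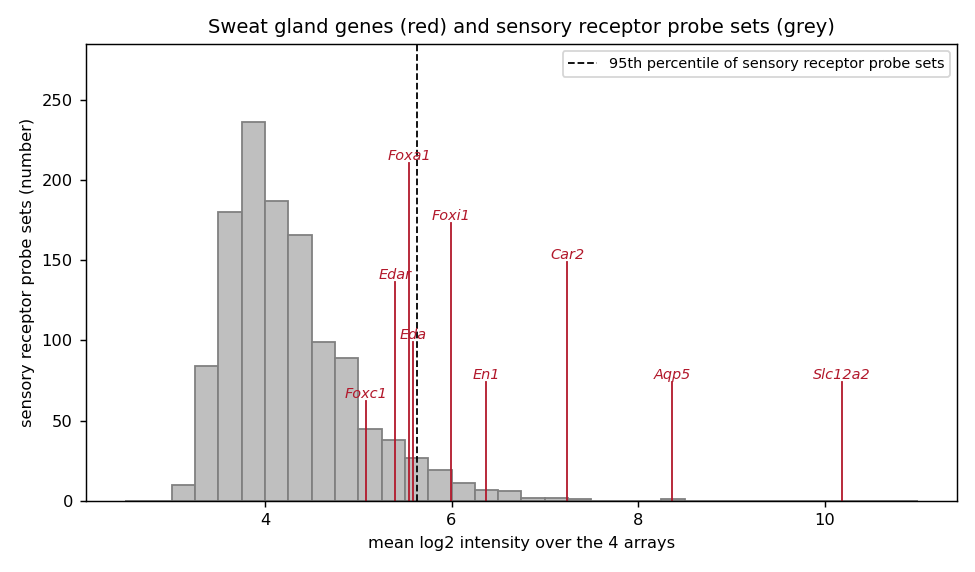
Number of olfactory and vomeronasal receptor probe sets (grey bars) by mean log2 intensity over the 4 arrays, with the mean of each of the 9 sweat gland genes in red (the height of a red line has no meaning). Slc12a2, Aqp5 and Car2 stand to the right of nearly all receptor probe sets, and Foxc1, Edar, Foxa1 and Eda stand left of the dashed 95th percentile at 5.62.

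The stretch before the annotated gene start was read for 7 of 9 members from the RefSeq promoter table (build GRCm38.p6), without Car2 and Slc12a2. Entries of a single chromosome were left out before the members were matched, so the coverage of Car2 and Slc12a2 is not given here. Printed here are 3 of the 7, as the 250 bases before the start, 5′ to 3′ on the strand of the gene. Aqp5 and Foxa1 are shown because their groups did not overlap, and Foxc1 because it holds the BMP motif. Capitals mark a match, on either strand, to any of the motifs searched. These were the forkhead motifs TGTTTAC and TATTTAC, the BMP SMAD motif GGCGCC and the TATA box TATAAA, none of which contains another.
Aqp5, chr15:99590778-99591027, plus strand: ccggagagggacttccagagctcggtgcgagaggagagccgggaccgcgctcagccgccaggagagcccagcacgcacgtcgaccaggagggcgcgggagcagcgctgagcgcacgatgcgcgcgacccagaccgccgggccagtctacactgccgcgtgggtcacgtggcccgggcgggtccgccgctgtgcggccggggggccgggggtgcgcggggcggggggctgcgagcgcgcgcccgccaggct
Foxa1, chr12:57546112-57546361, minus strand: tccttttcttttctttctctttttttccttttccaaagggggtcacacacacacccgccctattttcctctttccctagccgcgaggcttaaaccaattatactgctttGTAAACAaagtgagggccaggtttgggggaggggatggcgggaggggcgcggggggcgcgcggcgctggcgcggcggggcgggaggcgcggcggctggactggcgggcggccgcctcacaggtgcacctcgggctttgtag
Foxc1, chr13:31806396-31806645, plus strand: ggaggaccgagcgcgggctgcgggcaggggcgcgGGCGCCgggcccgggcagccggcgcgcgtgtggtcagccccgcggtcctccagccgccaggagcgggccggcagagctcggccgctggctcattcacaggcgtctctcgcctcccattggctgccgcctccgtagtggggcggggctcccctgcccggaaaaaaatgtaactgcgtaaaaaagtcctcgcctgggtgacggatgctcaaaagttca

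The Foxa1 stretch held 1 match to TGTTTAC, on the opposite strand, 141 to 135 bases before the start, and 3.17% of the 32851 promoters in the table hold that motif in the same window. The Foxc1 stretch held 1 match to GGCGCC, 216 to 211 bases before the start, a motif found in 9.59% of promoters. The Aqp5 stretch held none of these letters. TATTTAC occurs in 2.73% of promoters and TATAAA in 12.4%, and the windows of Eda, Edar, En1 and Foxi1 had no match to any of the 4 motifs. A match is a run of letters and was not tested as a binding site.

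Aqp5, the water channel of the apical membrane in secretory glands, had log2 values of 8.63 and 8.34 in the noggin arrays and 8.27 and 8.22 in the BMP4 arrays. Noggin replicate 1 was the high array, while noggin replicate 2 lay only just above BMP4 replicate 1. The difference was 0.23 (95% interval from -0.13 to 0.60, limma, adjusted p = 0.939), or 1.18-fold. It was smaller than the gap of 0.29 between the noggin arrays, and leaving out noggin replicate 1 gave 0.092 while leaving out noggin replicate 2 gave 0.38. A difference at least as far from 0 as that of Aqp5 was seen in 13.6% of named genes.

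Slc12a2 encodes the sodium, potassium and chloride cotransporter NKCC1, which loads secretory cells with chloride from the blood side. It had values of 10.20 and 10.22 in noggin and 10.21 and 10.11 in BMP4, so that the groups overlapped and 3 of the 4 arrays were nearly level. The difference was 0.052 (95% interval from -0.20 to 0.30, limma, adjusted p = 0.988). That interval leaves room for a difference of up to 0.30 toward noggin, and the difference ranged from 0.0033 to 0.10 with 1 array left out.

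Car2, a cytosolic carbonic anhydrase that supplies bicarbonate and protons, had values of 7.37 and 7.72 in noggin and 6.73 and 7.14 in BMP4. The noggin pair lay above the BMP4 pair, with BMP4 replicate 1 the lowest. The difference was 0.61 ± 0.21 (SE, n = 2 against 2 arrays), or 1.53-fold, with a 95% interval from 0.037 to 1.18. Its unadjusted p was 0.0417 and its adjusted p was 0.874 in limma over all probe sets, so it did not pass. Car2 was the only 1 of the 9 members whose difference was larger than the gaps within both groups, 0.36 and 0.41, and 21.9% of all genes had such a difference. A difference at least as far from 0 as that of Car2 was seen in 1.78% of genes. Without BMP4 replicate 1 the difference was 0.40, a change of over 1.5 times, and without BMP4 replicate 2 it was 0.82.

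**Figure D2:**
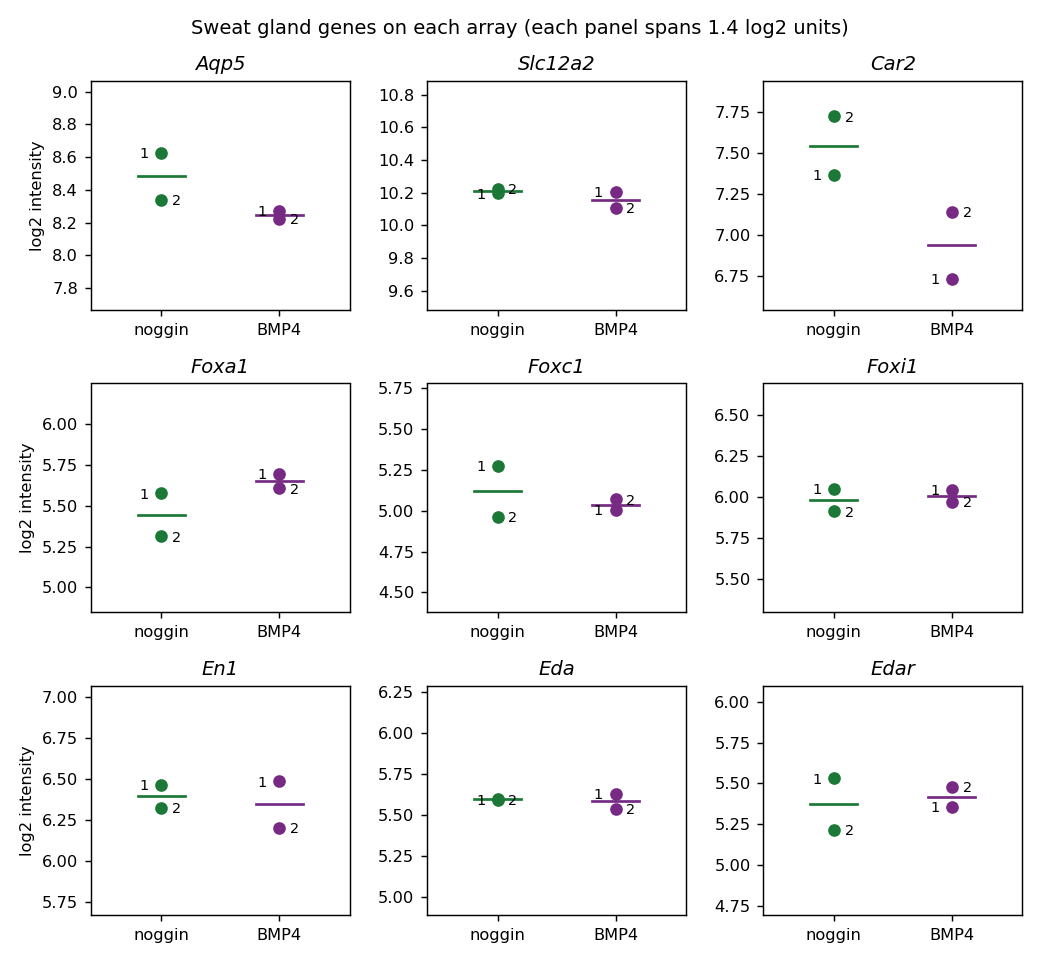
Log2 intensity of each of the 9 genes in the 2 noggin arrays (green) and 2 BMP4 arrays (purple), with the replicate number beside each point and a bar at the group mean; the panels differ in centre and share one span. Car2 shows the widest separation, with means of 7.54 and 6.93, Aqp5 and Foxa1 separate narrowly, and the other 6 genes overlap.

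Foxa1, a forkhead factor that opens chromatin and is needed for sweat secretion in mice, had values of 5.57 and 5.31 in noggin and 5.69 and 5.61 in BMP4. The noggin pair lay below the BMP4 pair, with noggin replicate 1 close to BMP4 replicate 2. The difference was -0.21 (95% interval from -0.56 to 0.15, limma, adjusted p = 0.940). Leaving out noggin replicate 2 gave -0.076 and leaving out noggin replicate 1 gave -0.34, and all 4 values lie near or under the 95th percentile of the receptor probe sets.

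Foxc1, a forkhead factor of gland and duct development, had values of 5.27 and 4.96 in noggin and 5.005 and 5.07 in BMP4. The noggin arrays lay on both sides of the BMP4 arrays, and the difference was 0.081 (95% interval from -0.30 to 0.47, limma, adjusted p = 0.988). Foxi1, a forkhead factor of acid-base transporting cells, had values of 6.05 and 5.91 in noggin and 6.04 and 5.97 in BMP4. Its groups overlapped, with a difference of -0.025 (95% interval from -0.30 to 0.25, limma, adjusted p = 0.999). The sign of the difference turned with 1 array left out for Foxc1 and Foxi1, as it did for En1, Eda and Edar.

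En1, the homeobox factor that sets ventral limb identity and the number of eccrine glands, had values of 6.46 and 6.32 in noggin and 6.49 and 6.20 in BMP4. The BMP4 arrays were the highest and the lowest of the 4, so the groups overlapped completely. The difference was 0.049 (95% interval from -0.33 to 0.43, limma, adjusted p = 0.995).

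Eda, the tumour necrosis factor family ligand that starts gland and hair placodes, had values of 5.60 and 5.59 in noggin and 5.63 and 5.54 in BMP4. The noggin pair lay between the BMP4 pair, and the difference was 0.012 (95% interval from -0.23 to 0.26, limma, adjusted p = 0.9999). Edar, its receptor in the epithelium, had values of 5.53 and 5.22 in noggin and 5.36 and 5.48 in BMP4. Here the BMP4 pair lay between the noggin pair, and the difference was -0.043 (95% interval from -0.44 to 0.36, limma, adjusted p = 0.998). Neither ligand nor receptor showed an order of the lines, and both lie below the 95th percentile of the receptor probe sets.

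**Figure D3:**
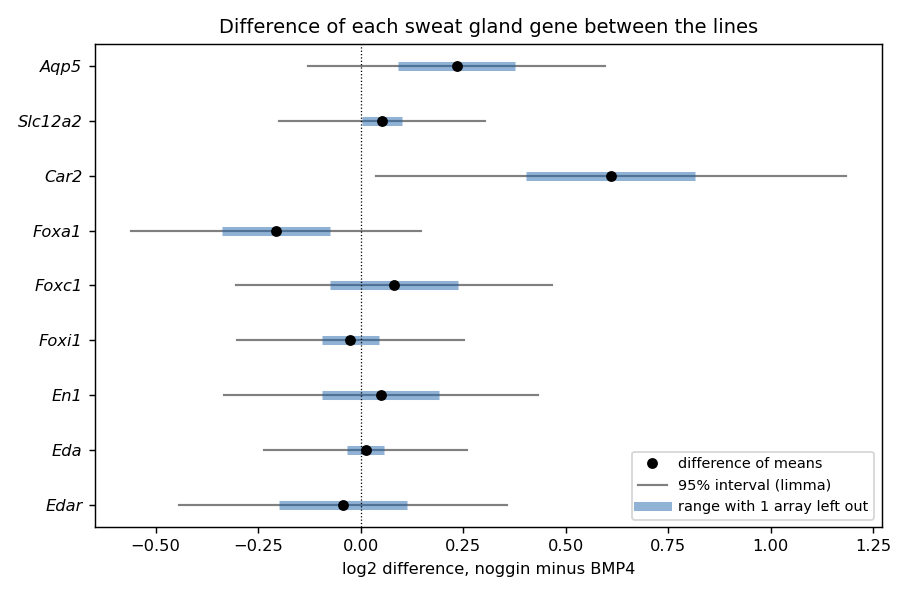
Log2 difference, noggin minus BMP4, of each of the 9 genes (black points), with the 95% interval from limma (grey lines) and the range of the difference when each array is left out in turn (blue bars). The interval of Car2, from 0.037 to 1.18, is the only one that does not include 0 before adjustment, and the blue bars of Foxc1, Foxi1, En1, Eda and Edar cross 0.

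The gaps between arrays of a line were set beside the differences between lines. Noggin replicate 1 was above noggin replicate 2 in 7 of 9 members, against 55.6% of all genes. Noggin replicate 1 was the highest array for 4 members (27.4% of genes) and the lowest for 0 (21.2%). Noggin replicate 2 was the lowest for 4 members (32.6% of genes), Foxa1, Foxc1, Foxi1 and Edar. These 4 include all of the forkhead members. BMP4 replicate 2 was the lowest for 4 members (20.3% of genes), Aqp5, En1, Eda and Slc12a2. In 8 of 9 members the difference between lines was smaller than the larger gap between arrays of the same line, and 78.1% of all genes had a difference no larger than that gap.

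Genes that work with the members were read from lists of related pathways. Of 60 measured genes in 5 pathway lists, 28 were higher and 32 lower in noggin by their means. The median difference was -0.02, and limma called 0 of them. At an unadjusted p below 0.05 there were 3 of the 60, against 4.28% of all genes. The noggin pair lay wholly above the BMP4 pair in 11 and wholly below it in 10 of the 60, against 15.7% and 17.9% of genes. Of the 27 genes named below from pathway and family lists, 19 turned sign or moved by over 1.5 times when 1 array was left out. The 8 that did not were Tab2, Wnt10a, Car12, Nr3c2, Atp6v1b1, Aqp9, Car13 and Car8. Of these, Nr3c2, Atp6v1b1 and Car8 had means under the 95th percentile of the receptor probe sets. A mean at or above it was found for 45 of the 60 pathway genes, and Fgf20, Wnt7a and Kcnma1 were among those under it. The median turned sign on leaving out 1 array in 8 of the 9 lists, and it lay between -0.19 and 0.12 over all lists. The list that kept its sign, ventral limb ectoderm, also holds genes of dorsal identity, and its median ranged from 0.0069 to 0.0955.

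The EDA receptor and NF-kB list, which carries the Edar signal into the cell, had 15 of 17 genes measured, with 8 higher and 7 lower in noggin. The median difference was 0.07. Limma called 0 of the 15. The genes with the smallest p were Tab1 at -0.24, Map3k7 at -0.23 and Tab2 at 0.16 (limma, adjusted p from 0.904 to 0.939). Map3k7 encodes the kinase TAK1 and Tab1 and Tab2 its partners, and their differences did not share a sign. Without BMP4 replicate 1 the median of the list was -0.07.

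The placode and gland bud list had 14 of 14 genes measured, with 5 higher and 9 lower in noggin. The median difference was -0.05, and limma called 0. The WNT ligand Wnt10a differed by -0.22 and Ctnnb1, the WNT effector beta-catenin, by -0.21, each with the noggin pair below the BMP4 pair, and Fgf20 differed by 0.11 (limma, adjusted p from 0.905 to 0.958). Shh, the hedgehog ligand of growing buds, named for that role and after its value was seen, differed by 0.02. The ventral limb ectoderm list had 5 of 5 genes measured and 0 called. Lmx1b and Wnt7a, genes of dorsal limb identity that En1 opposes, differed by -0.16 and -0.17, and the BMP receptor Bmpr1a by 0.15 (limma, adjusted p from 0.946 to 0.947). With 1 array left out Lmx1b ranged from -0.25 to -0.068, Wnt7a from -0.29 to -0.046 and Bmpr1a from 0.051 to 0.25.

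The secretory coil list, ion transport and calcium signalling, had 14 of 16 genes measured, with 7 higher and 7 lower in noggin, a median difference of -0.01 and 0 called. Atp1b1, a subunit of the sodium pump, had values of 9.01 and 6.97 in noggin and 6.63 and 6.86 in BMP4. Only noggin replicate 1 was high, and the difference of 1.24 was 0.22 without that array and 2.26 without noggin replicate 2. Itpr2, the calcium release channel required for sweat secretion, had values of 9.62 and 9.96 in noggin and 8.83 and 9.57 in BMP4, with a difference of 0.59 (limma, adjusted p = 0.932) that became 0.22 on leaving out BMP4 replicate 1 and 0.96 on leaving out BMP4 replicate 2. Kcnma1, a potassium channel, had values of 4.66 and 4.54 in noggin and 5.97 and 4.66 in BMP4, so that BMP4 replicate 1 alone was high and the difference of -0.71 was -0.06 without it and -1.37 without BMP4 replicate 2. The mean over all probe sets of Kcnma1 gave -0.35. Best2, a bestrophin channel of the sweat gland coil, and the chloride channel Cftr had values of 5.03 to 5.46 and 3.55 to 3.81, under the 95th percentile of the receptor probe sets in all 4 arrays. Best2 and Cftr are named for their role and after their values were seen.

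The duct list, sodium and proton transport, had 12 of 12 genes measured, with 5 higher and 7 lower in noggin, a median difference of -0.02 and 0 called. Car12, a membrane-bound carbonic anhydrase, had values of 6.65 and 6.65 in noggin and 7.56 and 7.29 in BMP4. The noggin pair was level and lay below the BMP4 pair, and the difference was -0.77 (95% interval from -1.12 to -0.42, limma, adjusted p = 0.732). This is the opposite sign to Car2, and the difference of Car12 ranged from -0.91 to -0.63 with 1 array left out. Nr3c2, the mineralocorticoid receptor, differed by 0.28 and Atp6v1b1, a proton pump subunit under Foxi1 control, by 0.31 (limma, adjusted p = 0.871 and 0.874), both at levels under the 95th percentile of the receptor probe sets. Car12, Nr3c2 and Atp6v1b1 are the 3 pathway genes with an unadjusted p below 0.05.

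Relatives of the members were read in the same way. Of 36 measured genes in 4 family lists, 18 were higher and 18 lower in noggin, the median difference was 0.0024, limma called 0 and 0 lay at an unadjusted p below 0.05. Only 16 of the 36 had a mean at or above the 95th percentile of the receptor probe sets. Car8, Car1, Aqp11, Aqp12, Slc12a8, En2 and Foxa3 were under it, so whether these genes were detected is uncertain. Among the other carbonic anhydrases, with Car12 counted in the duct list only, 9 of 14 were higher in noggin, with Car13 at 0.28, Car8 at 0.25 and Car1 at 0.29 (limma, adjusted p from 0.874 to 0.946). Car13, like Car2 a cytosolic enzyme, had values of 11.19 and 11.32 in noggin and 10.92 and 11.04 in BMP4, with the noggin pair above the BMP4 pair. The groups of Car1 overlapped, at 5.14 and 5.67 in noggin and 5.20 and 5.02 in BMP4, and its difference was 0.032 without noggin replicate 2. Among the other aquaporins, 4 of 10 were higher in noggin, and Aqp11, Aqp9 and Aqp12 differed by -0.20, -0.18 and -0.14. The groups of Aqp12 overlapped, and its difference ranged from -0.25 to -0.035 with 1 array left out. Of 7 measured relatives of Slc12a2, 3 were higher in noggin, and Slc12a9, Slc12a8 and Slc12a3 differed by -0.22, -0.14 and -0.11. Of 5 relatives of the forkhead and engrailed members, 2 were higher in noggin, and Foxi2, En2 and Foxa3 differed by -0.13, 0.08 and 0.07.

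**Figure D4:**
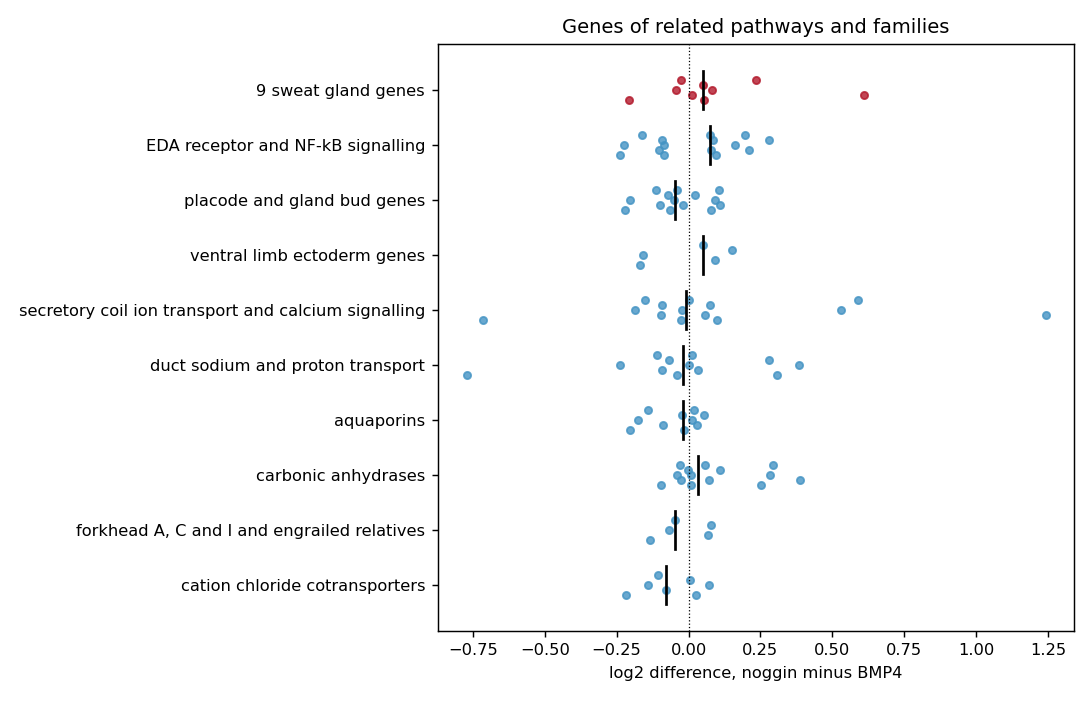
Log2 difference, noggin minus BMP4, of each measured gene (points, spread vertically for visibility) in the 9 sweat gland genes (red) and in the 5 pathway and 4 family lists (blue), with a black bar at the median of each row. The medians lie within 0.08 of 0 in all 10 rows, and the widest points are Atp1b1 at 1.24, Car12 at -0.77 and Kcnma1 at -0.71.

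The genes whose pattern over the 4 arrays was most like that of Car2 were found from values centred on the mean of each gene. The 5 nearest were P2ry10, Gcnt2, Il1a, Ociad2 and Abcg2, with root mean square differences from Car2 of 0.036, 0.038, 0.041, 0.041 and 0.043 log2 units. Their differences between lines ran from 0.54 for Ociad2 to 0.68 for Il1a. Of the other members, Aqp5 was the nearest to Car2, at 0.34, and Foxa1 the farthest, at 0.50. With 4 arrays and 19938 genes, close patterns of this kind are a description of these arrays.

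Marker lists of other cell types were read beside Car2. In bulk tissue, fewer cells of a type and less RNA per cell cannot be told apart. All 8 of 8 Langerhans cell and myeloid markers were higher in noggin, by 0.83 at the median, where 47.8% of all genes had a higher mean in noggin. In 6 of the 8 the noggin pair lay wholly above the BMP4 pair, against 15.7% of genes. At an unadjusted p below 0.05 limma gave 1 of the 8, against 4.28% of genes, and it called 0. Their summed level, the log2 of the sum of linear intensities, was 11.42 and 11.62 in noggin and 10.13 and 11.15 in BMP4. All 8 of 8 measured sebaceous markers were higher in noggin, with a median of 0.55 and summed levels of 12.10 and 11.92 against 11.40 and 11.70. Plin2 at 0.75 and Dgat2 at 0.15 were the extremes. In 4 of the 8 the noggin pair lay wholly above the BMP4 pair. At an unadjusted p below 0.05 limma gave 4 of the 8 sebaceous markers, and it called 0 of the 8. Scd1 and Dgat2 were the brightest of them, with means of 10.36 and 10.17. Elovl3 and Mc5r, with means of 5.61 and 5.06, lay under the 95th percentile of the receptor probe sets. Whether the bright genes came from sebaceous cells was not tested. All 8 of 8 skeletal muscle markers were higher in noggin, with a median of 0.82 and summed levels of 12.48 and 11.52 against 10.53 and 11.82. T cell markers were higher in noggin in 6 of 6 measured genes, with a median of 0.21 and summed levels of 9.87 and 10.02 against 9.47 and 9.89. Endothelial markers were higher in 5 of 6, with a median of 0.14 and summed levels of 9.09 and 8.998 against 8.72 and 9.05. Fibroblast markers were higher in 2 and lower in 4 of 6 measured genes, with a median of -0.02 and summed levels of 11.83 and 11.69 against 11.58 and 12.04. The noggin pair lay wholly above the BMP4 pair in 1 of 8 muscle, 1 of 6 T cell, 2 of 6 endothelial and 0 of 6 fibroblast markers. In all of these lists BMP4 replicate 1 had the lowest summed level, and it was the lowest array for Car2. The share of all genes lowest on BMP4 replicate 1 is not given here, so whether this is unusual was not tested. The same array was lowest for suprabasal keratinocyte markers, at 15.47 against 15.49 to 15.53, and for the myoepithelial and the melanocyte and Schwann cell lists. For luminal gland, basal keratinocyte, Merkel cell and erythroid markers another array was lowest. Langerhans cell and myeloid markers were above the 95th percentile of the receptor probe sets in 8 of 8 genes, muscle markers in 7 of 8, sebaceous markers in 6 of 8, T cell and fibroblast markers in 6 of 6 each and endothelial markers in 4 of 6. The part of these cells in the Car2 values was not tested.

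Of 9 luminal gland cell markers, 5 were higher and 4 lower in noggin. The median difference was 0.02, and the summed levels were 9.97 and 9.83 in noggin and 9.93 and 9.93 in BMP4. Krt18 and Krt7, keratins of simple and ductal epithelium, gave the highest and the lowest difference, 0.17 and -0.31. Krt18 had values of 6.19 and 5.53 in noggin and 5.69 and 5.69 in BMP4, so that noggin replicate 1 alone was high, and the difference was -0.16 without that array. Krt7 had 7.27 and 7.07 in noggin and 7.54 and 7.42 in BMP4, with the noggin pair below the BMP4 pair. Of these 9 markers 6 reached the 95th percentile of the receptor probe sets, and Elf5, Cldn10 and Muc1 did not. Krt8, Krt7 and Sox9, which did, are also made by other cells of skin. All 7 myoepithelial and smooth muscle markers were higher in noggin, by a median of 0.16. Their summed levels were 10.12 and 9.41 in noggin and 9.26 and 9.85 in BMP4, and 0 of the 7 separated the lines, against 33.6% of genes.

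**Figure D5:**
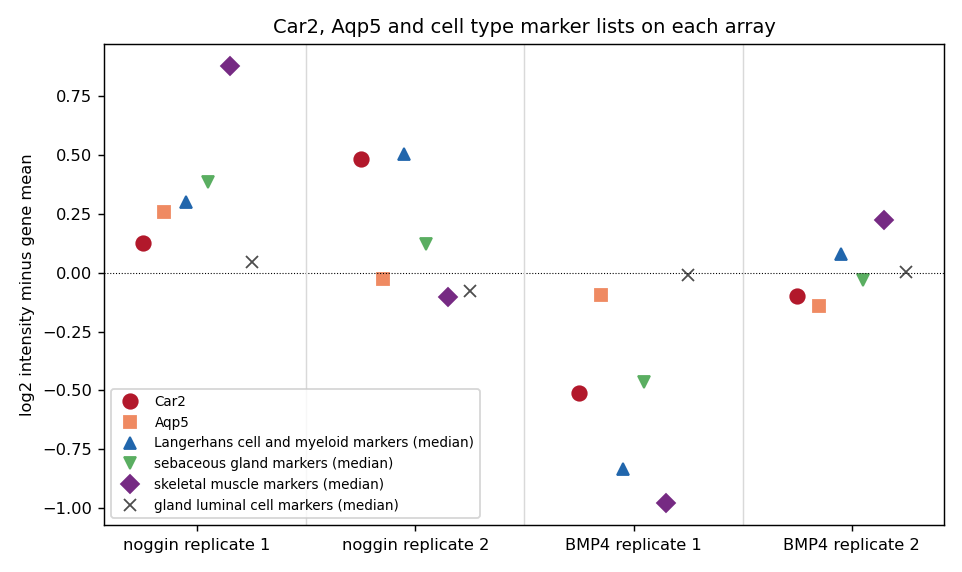
Log2 intensity of Car2 and Aqp5 in each array, minus the mean of the gene over the 4 arrays, beside the median of the same quantity over 4 marker lists. BMP4 replicate 1 is lowest for Car2 and for the Langerhans cell and myeloid (-0.83), sebaceous (-0.46) and muscle (-0.98) lists, while the luminal gland cell markers stay between -0.08 and 0.04.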

How the data were processed

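RNA from laser-captured hindpaw epidermis was amplified and labelled with biotin, per the labels' protocols. Log2 intensities of probe sets were deposited, made by the authors with Affymetrix Expression Console and RMA, per the submitters' processing notes, with no settings given; RMA equalizes the arrays, so overall differences in signal are removed. Replicates are pools of 3 animals, and their number limits the precision. Of 35556 probe sets, 21789 have 1 symbol, 1621 several and 12146 none here.

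Limma 3.58.1 in R 4.3.3 was fitted to all probe sets (two-sided, with the line as its term, 2 residual and 2.08 prior degrees of freedom), with Benjamini-Hochberg adjustment over all of them. It was tested on simulated data. Errors and intervals come from this fit. The members and lists were chosen with earlier results of these data known. The genes named include the 9 members and the 5 nearest to the widest member. From each pathway or family list they are the 3 genes of smallest p. From marker lists they are defining markers, some of the extremes, and the luminal and sebaceous markers under the 95th percentile. Not every extreme of a marker list is named. The brightest sebaceous markers were named after their values were seen. Others are said to be chosen later. Of 197 list genes, 182 were measured. Same-numbered arrays are not said to be paired, and their deviations correlated at -0.12. Alternatives were the replicate block, other eBayes settings, dim probe sets left out, averaging the probe sets of each gene, centring, quantile normalization and leaving out each array. Figures used matplotlib 3.10.9.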

Additional observations from a re-analysis of the deposited data

How the results depend on the processing

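Limma called 0 probe sets and 0 members under the chosen fit and under every alternative run, with 1994 probe sets at an unadjusted p below 0.05 in the chosen fit and 1265 to 2455 in the alternatives. With the replicate number as a block it called 0 of both, with 1736 probe sets and 1 member, Car2, at an unadjusted p below 0.05. Exchanging the BMP4 numbers in the block, an alternative chosen after seeing the data, gave 0 and 0 calls, and 0 members lay at an unadjusted p below 0.05 there and without BMP4 replicate 1. With all arrays kept, 59 of 59 values of the members under the alternatives had the same sign and stayed above the threshold. The block, the eBayes settings and the dim filter leave a difference of means as it is. Averaging probe sets does too, as each member has 1. Only centring and quantile normalization could have turned a sign, so most of the 59 equal signs were fixed in advance. The smallest adjusted p of any member was 0.709, for Car2 without BMP4 replicate 2. Dim probe sets left out gave no value for the 4 members under the 95th percentile.

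With 1 array left out, 4 of 9 members kept their sign. The difference then ranged from -0.075 to 0.24 for Foxc1, -0.095 to 0.045 for Foxi1, -0.093 to 0.19 for En1, -0.033 to 0.057 for Eda and -0.20 to 0.11 for Edar. Among other genes it ranged from -0.0062 to 0.14 for Foxa3, -0.35 to 0.075 for Foxi2, -0.29 to 0.072 for Slc12a3, -0.16 to 0.50 for Krt18 and -1.52 to 1.04 for Krt77. A single array in a line was assumed to vary like the other line. The number of arrays and values near the level of unexpressed genes limit what could be seen.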

Other observations

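Krt77, a keratin of the eccrine duct that was picked out after its values were seen, had log2 values of 8.65 and 7.31 in noggin and 6.94 and 9.50 in BMP4 epidermis. The BMP4 arrays were the lowest and the highest, so the lines overlapped, and the difference of -0.24 (limma, adjusted p = 0.999) turned to 1.04 on leaving out BMP4 replicate 2 and was -1.52 on leaving out BMP4 replicate 1. The sodium channel subunit Scnn1g, also picked out later, had 6.97 and 6.40 in noggin and 6.29 and 6.31 in BMP4. Its partners Scnn1a and Scnn1b ranged from 8.18 to 8.39 and from 5.81 to 5.88 over the 4 arrays.

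Markers of Merkel cells, touch-sensing cells of the epidermis, had 0 of 6 genes with a mean at the 95th percentile of the receptor probe sets. On noggin replicate 1 alone Piezo2 and Atoh1 were above it, at 5.84 and 5.64. Krt8 and Krt18, with means of 8.38 and 5.78, were counted with the luminal gland markers and not in this list.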
